A study of Mus musculus with 21 samples.

Results

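The variable (V) segments of the immunoglobulin loci were followed across 21 lung libraries of A/J mice. Members were the rows of the deposited count table whose symbol began with Ighv, Igkv or Iglv and that had at least 10 counts in at least 3 of the 21 libraries. This rule, which used the measured counts, kept 163 of 221 V rows among 38924 symbols: 77 of 114 heavy-chain rows, 83 of 104 kappa rows and 3 of 3 lambda rows. Of the other rows, 18 had 0 counts in all libraries and 40 had counts but did not reach the minimum. The 6 members that reached 10 counts in exactly 3 libraries were Ighv1-52, Ighv1-83, Igkv3-9, Igkv4-54, Igkv4-71 and Igkv8-18, with 177, 99, 124, 139, 111 and 447 counts in total. The 5 rows that reached it in 2 libraries were Ighv1-62-2, Ighv1-85, Ighv2-4, Igkv1-132 and Igkv3-3, with totals of 63, 112, 130, 51 and 199. Members held between 98.9 and 100% of the V counts of each library, so sums over all V rows and over members differed little.

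An antibody is built of heavy chains paired with kappa or lambda light chains. Each developing B cell joins a V segment to a short J segment, with a D segment between them in heavy chains, and all of its descendants carry the same joined V segments. A population of many B cell clones therefore reads out many V rows, and an expanded clone reads out few. Plasma cells, the secreting end stage, hold far more immunoglobulin RNA per cell than resting B cells do. In bulk tissue a rise in V counts through more cells and a rise through more RNA per cell cannot be told apart.

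The mice were female A/J, 22 weeks after treatment. NNK, a carcinogen of tobacco smoke, was injected into the peritoneum 1 time at 100 mg/kg, with saline vehicle for the groups without it. LPS, a component of the outer membrane of Gram-negative bacteria that activates B cells and innate immune cells, was given through the nose at 5 µg per mouse in 50 µL, 1 time per week, from 1 week after the NNK date. Sil and I3C were fed at 20 µmol/g diet each. The 7 groups of 3 libraries were Control (vehicle), NNK, LPS, NNK_LPS, NNK_LPS_Sil, NNK_LPS_I3C and NNK_LPS_Sil_I3C (NNK, LPS and both agents). The NNK-treated groups gave tumour RNA, from tumours dissected out of the lungs of 3 mice per group and pooled, and Control and LPS gave RNA of normal lung, so NNK and tumour tissue cannot be told apart. The labels do not say if a group's libraries are separate animals or aliquots of a pool. The p-values measure the spread between these libraries, and whether that is a spread between animals was not tested. Within each group, V shares differed between libraries beyond counting noise, as given below.

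The segments that carried the clearest patterns are shown as the last 280 bases of their spliced transcript in GENCODE M21 (GRCm38), read 5′ to 3′ in the gene's direction; coordinates are those of the whole transcript. The heavy segments Ighv1-18 (chr12:114682632-114683065, minus strand) and Ighv1-26 (chr12:114788372-114788805, minus strand) together filled most of the heavy repertoire of 1 library. They differ at 8 of 280 bases (97.1% identity), and capitals mark the bases that differ within each pair.
Ighv1-18: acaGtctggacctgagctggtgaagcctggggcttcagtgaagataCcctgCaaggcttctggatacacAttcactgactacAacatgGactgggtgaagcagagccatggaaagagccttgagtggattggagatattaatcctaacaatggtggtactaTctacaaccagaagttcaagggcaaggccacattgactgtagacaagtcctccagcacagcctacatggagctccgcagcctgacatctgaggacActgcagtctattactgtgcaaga
Ighv1-26: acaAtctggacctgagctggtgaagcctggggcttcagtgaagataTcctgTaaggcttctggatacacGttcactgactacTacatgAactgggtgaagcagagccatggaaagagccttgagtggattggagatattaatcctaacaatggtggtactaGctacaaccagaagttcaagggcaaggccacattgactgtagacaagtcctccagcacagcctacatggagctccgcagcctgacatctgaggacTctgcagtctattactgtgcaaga
The kappa segments Igkv1-117 (chr6:68121046-68121827, plus strand) and Igkv1-110 (chr6:68270485-68271267, plus strand) were the most used in many libraries and differ at 9 of 280 bases (96.8% identity).
Igkv1-117: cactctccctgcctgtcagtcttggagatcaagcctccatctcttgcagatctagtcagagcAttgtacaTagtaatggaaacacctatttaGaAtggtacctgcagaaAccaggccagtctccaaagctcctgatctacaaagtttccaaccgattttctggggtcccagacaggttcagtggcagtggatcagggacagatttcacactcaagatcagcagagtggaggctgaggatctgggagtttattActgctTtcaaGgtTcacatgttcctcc
Igkv1-110: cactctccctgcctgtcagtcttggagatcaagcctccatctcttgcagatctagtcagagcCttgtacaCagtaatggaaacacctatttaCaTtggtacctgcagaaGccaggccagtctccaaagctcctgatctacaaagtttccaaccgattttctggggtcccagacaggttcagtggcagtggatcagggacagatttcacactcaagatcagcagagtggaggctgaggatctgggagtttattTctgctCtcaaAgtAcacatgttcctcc
The lambda segments Iglv1 (chr16:19085017-19085500, minus strand) and Iglv2 (chr16:19260401-19260859, minus strand) changed places as the leading lambda segment in 2 libraries and differ at 7 of 280 bases (97.5% identity).
Iglv1: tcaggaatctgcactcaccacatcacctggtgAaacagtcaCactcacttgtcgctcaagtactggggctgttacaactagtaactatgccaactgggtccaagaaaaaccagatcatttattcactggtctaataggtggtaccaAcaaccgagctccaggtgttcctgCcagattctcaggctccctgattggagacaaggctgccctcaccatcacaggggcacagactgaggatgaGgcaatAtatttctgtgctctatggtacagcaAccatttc
Iglv2: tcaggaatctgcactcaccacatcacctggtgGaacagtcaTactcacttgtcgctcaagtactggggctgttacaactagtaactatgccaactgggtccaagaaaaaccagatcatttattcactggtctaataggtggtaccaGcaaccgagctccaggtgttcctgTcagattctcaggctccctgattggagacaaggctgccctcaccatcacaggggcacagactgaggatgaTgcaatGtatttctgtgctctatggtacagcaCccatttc
Ighv11-2 (chr12:114048241-114048812, minus strand) and Igkv14-126 (chr6:67896172-67896642, plus strand) took their largest shares in Control; no bases are marked.
Ighv11-2: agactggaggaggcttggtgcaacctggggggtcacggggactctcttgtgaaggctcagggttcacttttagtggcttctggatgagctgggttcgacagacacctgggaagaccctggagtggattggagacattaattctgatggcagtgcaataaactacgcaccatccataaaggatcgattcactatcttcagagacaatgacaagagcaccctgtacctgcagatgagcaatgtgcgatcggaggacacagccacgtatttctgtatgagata
Igkv14-126: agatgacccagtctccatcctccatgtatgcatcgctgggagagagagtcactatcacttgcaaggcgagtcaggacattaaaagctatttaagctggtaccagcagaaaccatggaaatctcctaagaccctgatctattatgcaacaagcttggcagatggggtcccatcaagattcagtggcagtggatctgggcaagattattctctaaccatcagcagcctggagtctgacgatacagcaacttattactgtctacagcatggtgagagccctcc

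Such likeness was common. Over the last 280 bases, 87 of the 163 members had another V row in the table at 95% identity or more, and the median identity to the nearest row was 95.4%. The mm10 build, named in the submitters' processing notes, is of the C57BL/6 strain, and for the aligner and counting tool the sources used here give no name. How far reads of an A/J segment were counted under a close relative was not tested, so a count names a row and its near copies together. By GENCODE M21, 160 members were annotated as functional V genes and 3 as pseudogenes (Ighv1-14, Ighv1-83 and Igkv2-116); all 16 pseudogene rows of the table together held 0.622% of the V counts.

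The libraries held 13.3 to 25.3 M counts each. Lung identity was checked with 4 alveolar type 2 cell markers, whose summed level ran from 14063 to 54569 CPM (counts scaled to a library total of 1 M) over the 21 libraries. Counts of mt-Atp8 per count of mt-Atp6, both mitochondrial genes, split the libraries into 3 sets that follow the numbers in their titles: 0.0206 to 0.0236 in Control, NNK and LPS replicates 1 and 2; 0.0782 to 0.0876 in LPS replicate 3, NNK_LPS, NNK_LPS_Sil and NNK_LPS_I3C replicate 1; and 0.117 to 0.135 in the other 5 libraries. The labels do not say what sets them apart. NNK and Control share a set, as do NNK_LPS_Sil and NNK_LPS, whereas NNK_LPS shares none with Control or NNK.

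V segment RNA was scarce in untreated lung and abundant in every LPS-treated group. The summed V level was 39.8, 29.2 and 78.7 CPM in the 3 Control libraries and 179, 149 and 291 CPM in NNK. It was 1899, 3421 and 1265 CPM in LPS, and 1971, 706 and 1558 CPM in NNK_LPS. The LPS libraries of the same set as Control, replicates 1 and 2, lay above every Control library. The ranges of Control, NNK and LPS did not overlap, and those of LPS and NNK_LPS did.

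With the diets, the sum was 2180, 2179 and 283 CPM in NNK_LPS_Sil, 3008, 2200 and 3710 CPM in NNK_LPS_I3C, and 1704, 2830 and 892 CPM in NNK_LPS_Sil_I3C. NNK_LPS_Sil replicate 3 thus stood below all other LPS-treated libraries and inside the range of NNK. As ratios of group means, NNK was 4.19 times Control, LPS 44.6 times Control, NNK_LPS 28.7 times Control and 6.84 times NNK. NNK_LPS was 0.643 of LPS, NNK_LPS_Sil 1.10 times, NNK_LPS_I3C 2.11 times and NNK_LPS_Sil_I3C 1.28 times NNK_LPS. Of the diet groups, only NNK_LPS_I3C had a range apart from that of NNK_LPS, and 2 of its 3 libraries belong to another set. These sums describe rows that were selected on their counts, and no test is attached to them.

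**Figure D1:**
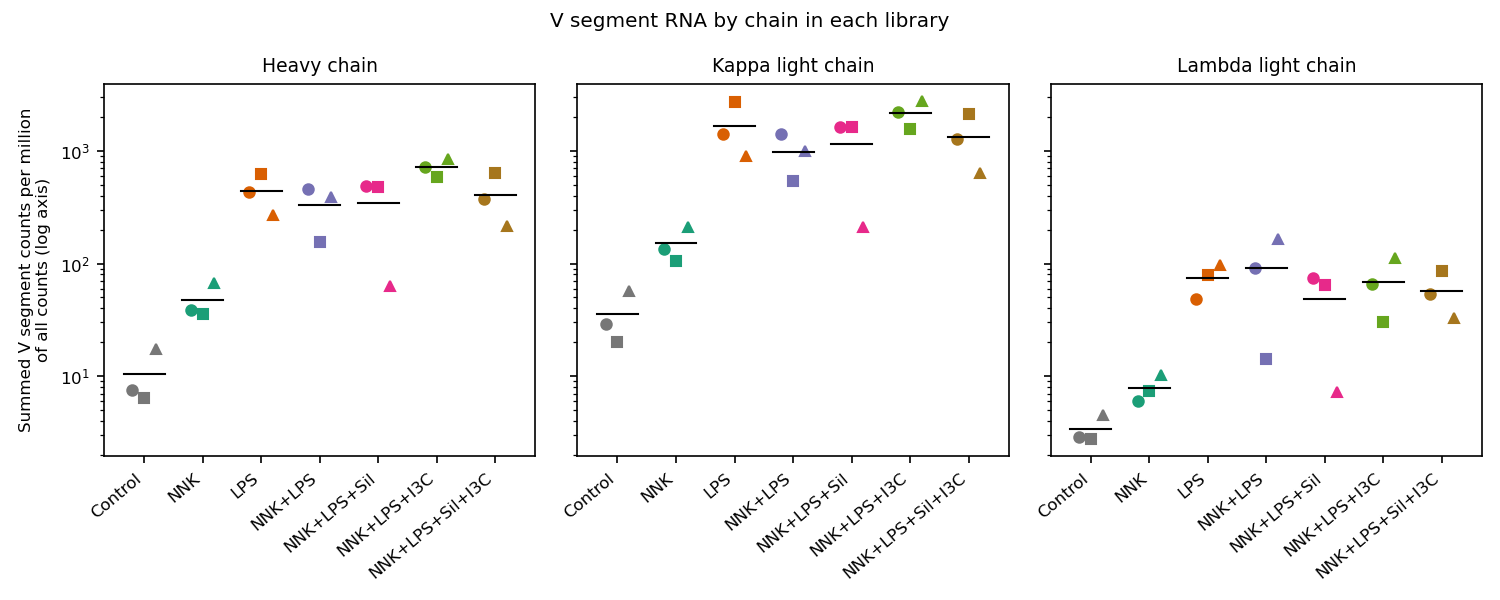
Summed heavy, kappa and lambda V levels in CPM (log axis) for the 3 libraries of each group; circles, squares and triangles are replicates 1, 2 and 3 and the bar is the mean. Control libraries lie lowest in all 3 panels, and NNK_LPS_Sil replicate 3 is the lowest of the LPS-treated libraries.

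Heavy and light V counts moved together. The ratio of heavy to light V counts stayed between 0.226 and 0.368 in all 21 libraries, while the sum itself spanned from 29.2 to 3710 CPM. Kappa V counts were between 0.608 and 1.05 of the counts of Igkc, the kappa constant region. Heavy V counts were only 0.0418 to 0.076 of the summed heavy constant region counts. Lambda V counts ranged more widely, from 0.246 to 2.15 of the counts of Iglc2, a lambda constant region. V segments of the T cell receptor, which are built by the same recombination, were read at 1.73 to 4.41 CPM in Control and 9.87 to 16.4 CPM in LPS over 138 rows.

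More V counts brought more V rows into view. The number of V rows with at least 1 count was 121 ± 20 (SD, n = 3) in Control, 149 ± 13 in NNK, 178 ± 2.1 in LPS and 169 ± 9.2 in NNK_LPS. The order turned around when each library was reduced to 455 V counts, the number in the shallowest library. Control then showed 107 ± 3.9 rows, NNK 103 ± 9.1, LPS 89.2 ± 13 and NNK_LPS 90.4 ± 4.9. With the diets, 100.2 ± 4.4 rows were seen in NNK_LPS_Sil, 82.7 ± 19 in NNK_LPS_I3C and 94.7 ± 3.4 in NNK_LPS_Sil_I3C. NNK_LPS_I3C replicate 2, at 61.3 rows, and LPS replicate 2, at 75.4, stood lowest. No Control library, with 103 to 110 rows, fell within the NNK_LPS range of 87.3 to 96.

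Evenness, Pielou's index, is 1 when all rows seen hold equal counts. For heavy V rows it was 0.911 ± 0.024 (SD, n = 3) in Control, 0.891 ± 0.017 in NNK, 0.805 ± 0.071 in LPS and 0.785 ± 0.056 in NNK_LPS. NNK_LPS_Sil had 0.854 ± 0.043, NNK_LPS_Sil_I3C 0.83 ± 0.019 and NNK_LPS_I3C 0.674 ± 0.2. Kappa evenness was 0.867 ± 0.015 in Control, 0.846 ± 0.06 in NNK, 0.726 ± 0.11 in LPS and 0.774 ± 0.02 in NNK_LPS, and lowest, 0.63 ± 0.23, in NNK_LPS_I3C. The wide spread in NNK_LPS_I3C came from replicate 2, with 0.44 for heavy and 0.369 for kappa rows; without it the group means were 0.791 and 0.761. The means of LPS and NNK_LPS lay in opposite order for heavy and kappa rows, and differed by less than the SD of LPS in both. Pielou evenness was not matched for depth, and the inverse Simpson number (the number of equally used rows that would give the same concentration) gave another order. For heavy rows it was 25.3 ± 2.1 in Control, 33.6 ± 8.3 in NNK, 31.0 ± 4.7 in NNK_LPS_Sil and 29.6 ± 3.3 in NNK_LPS_Sil_I3C, against 24.2 ± 9.3 in LPS and 18.8 ± 7.8 in NNK_LPS.

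**Figure D2:**
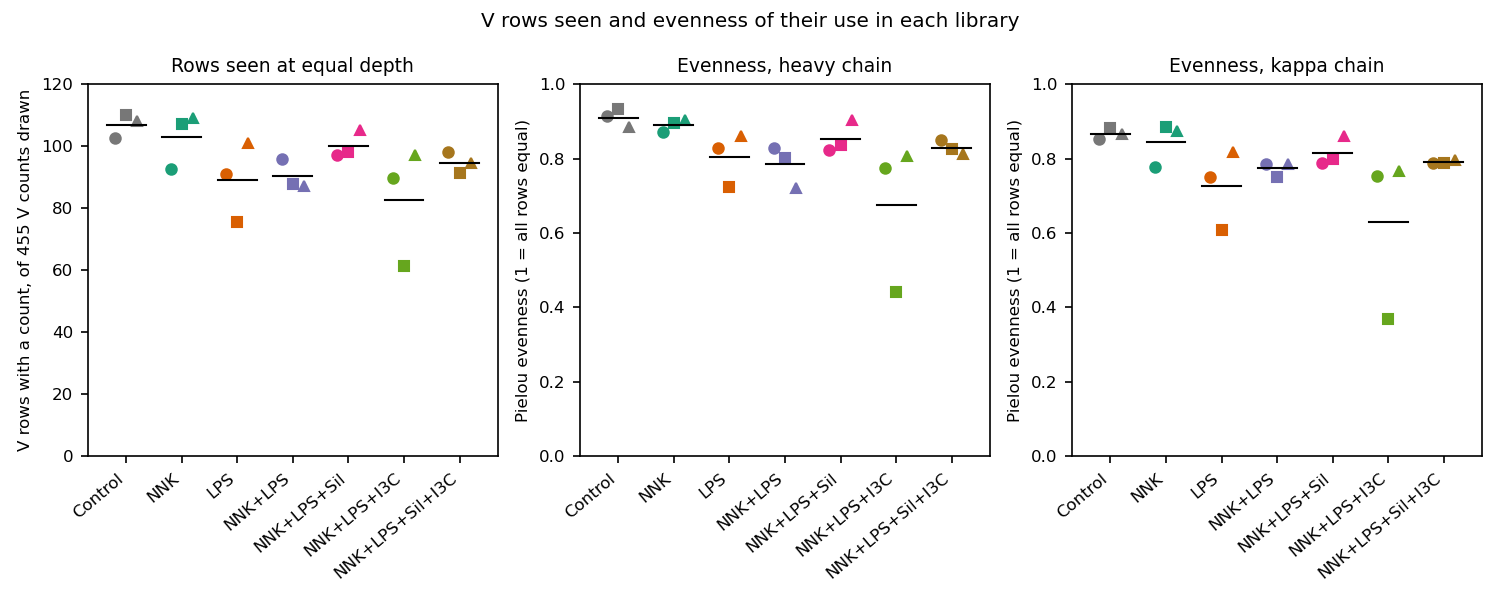
Left, V rows with a count among 455 V counts drawn from each library; middle and right, Pielou evenness of heavy and kappa V rows. Symbols are replicates 1 (circle), 2 (square) and 3 (triangle), bars are means. The squares of LPS and NNK_LPS_I3C lie below the other libraries of their groups in all 3 panels.

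The heavy repertoire had no fixed leader. Over 21 libraries, 13 different segments ranked first among heavy V rows, and 31 segments reached 5% of the heavy V counts in some library. The largest mean shares were those of Ighv6-3 (5.35%, range 0.99 to 19.5%), Ighv9-3 (4.79%, 0.873 to 9.64%) and Ighv1-26 (4.54%, 0 to 34.8%). Ighv8-11, Ighv2-9 and Ighv2-6 followed with 3.56, 3.25 and 3.22%. By family, the 55 Ighv1 rows held 38.5% of heavy V counts on average. Their share was 28.4 ± 6.3% in Control, 44.8 ± 3.5% in NNK_LPS_Sil and 44.3 ± 3.2% in NNK_LPS_Sil_I3C.

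Only 3 heavy segments passed 20% of the heavy counts of a library, each in 1 library. Ighv1-18 held 41.2% (5560 counts) and Ighv1-26 34.8% (4694 counts) in NNK_LPS_I3C replicate 2, where Ighv1 rows in all held 86%. In the other 20 libraries Ighv1-18 did not exceed 2.42% and Ighv1-26 did not exceed 7.26%. The sequences above differ at 8 positions, and whether 1 transcript was split over these rows was not tested. Ighv8-11 held 22.4% (1543 counts) in NNK_LPS replicate 3 and 10.3% in LPS replicate 2. Ighv6-3 held 19.5% (471 counts) in NNK_LPS replicate 2 and led in LPS replicate 3 and NNK_LPS replicate 1 with 8.18 and 8.44%.

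Kappa use was led by Igkv1-110, which ranked first in 8 of the 21 libraries, all of them LPS-treated. Its mean share of kappa V counts was 9.1%, from 1.04% in Control replicate 3 to 21.8% in NNK_LPS replicate 1. In NNK_LPS it held 21.8, 18.7 and 9.61%, and in LPS 5.85, 5.32 and 10.9%. Igkv1-117, with a mean of 8.07% and a median of 4.84%, reached 70.2% (25273 of 35988 kappa V counts) in NNK_LPS_I3C replicate 2 and 1.69 to 12.6% elsewhere. With Igkv1-117 set aside, the remaining kappa rows of that library gave an inverse Simpson number of 16.5, against 2.01 with it. Igkv10-96, Igkv3-12, Igkv6-15 and Igkv8-30 came next, with mean shares of 4.49, 4.31, 3.39 and 2.97%.

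A second kappa segment dominated 1 LPS library. Igkv1-88 (chr6:68862265-68863031, minus strand) held 40.8% of kappa V counts (17028 counts) in LPS replicate 2. It had 13 and 368 counts in LPS replicates 1 and 3 and 2 counts in each Control library. The same library had 15.7% of its heavy V counts in Ighv3-6 and 15.1% in Ighv2-6, and the highest level of Ighg1, the IgG1 constant region, at 5577 CPM. Which heavy segment was paired with which light segment cannot be read from these counts.

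A pair of segments was high in the same libraries. Ighv10-3 (chr12:114523441-114523905) led the heavy rows of NNK_LPS_I3C replicates 1 and 3 with 12.5 and 11.9%, and Igkv4-74 (chr6:69184826-69185397) held 12.3 and 12.2% of their kappa counts. Both were also above 5% in LPS replicate 3 (6.38 and 5.87%) and NNK_LPS_Sil replicate 1 (7.21 and 6.82%). In NNK_LPS_I3C replicate 2, which belongs to the same diet group, they held 0.104 and 0.025%. They did not always go together: LPS replicate 1 had 5.27% Ighv10-3 and 0.529% Igkv4-74. The 2 segments were set side by side after their values were seen.

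**Figure D3:**
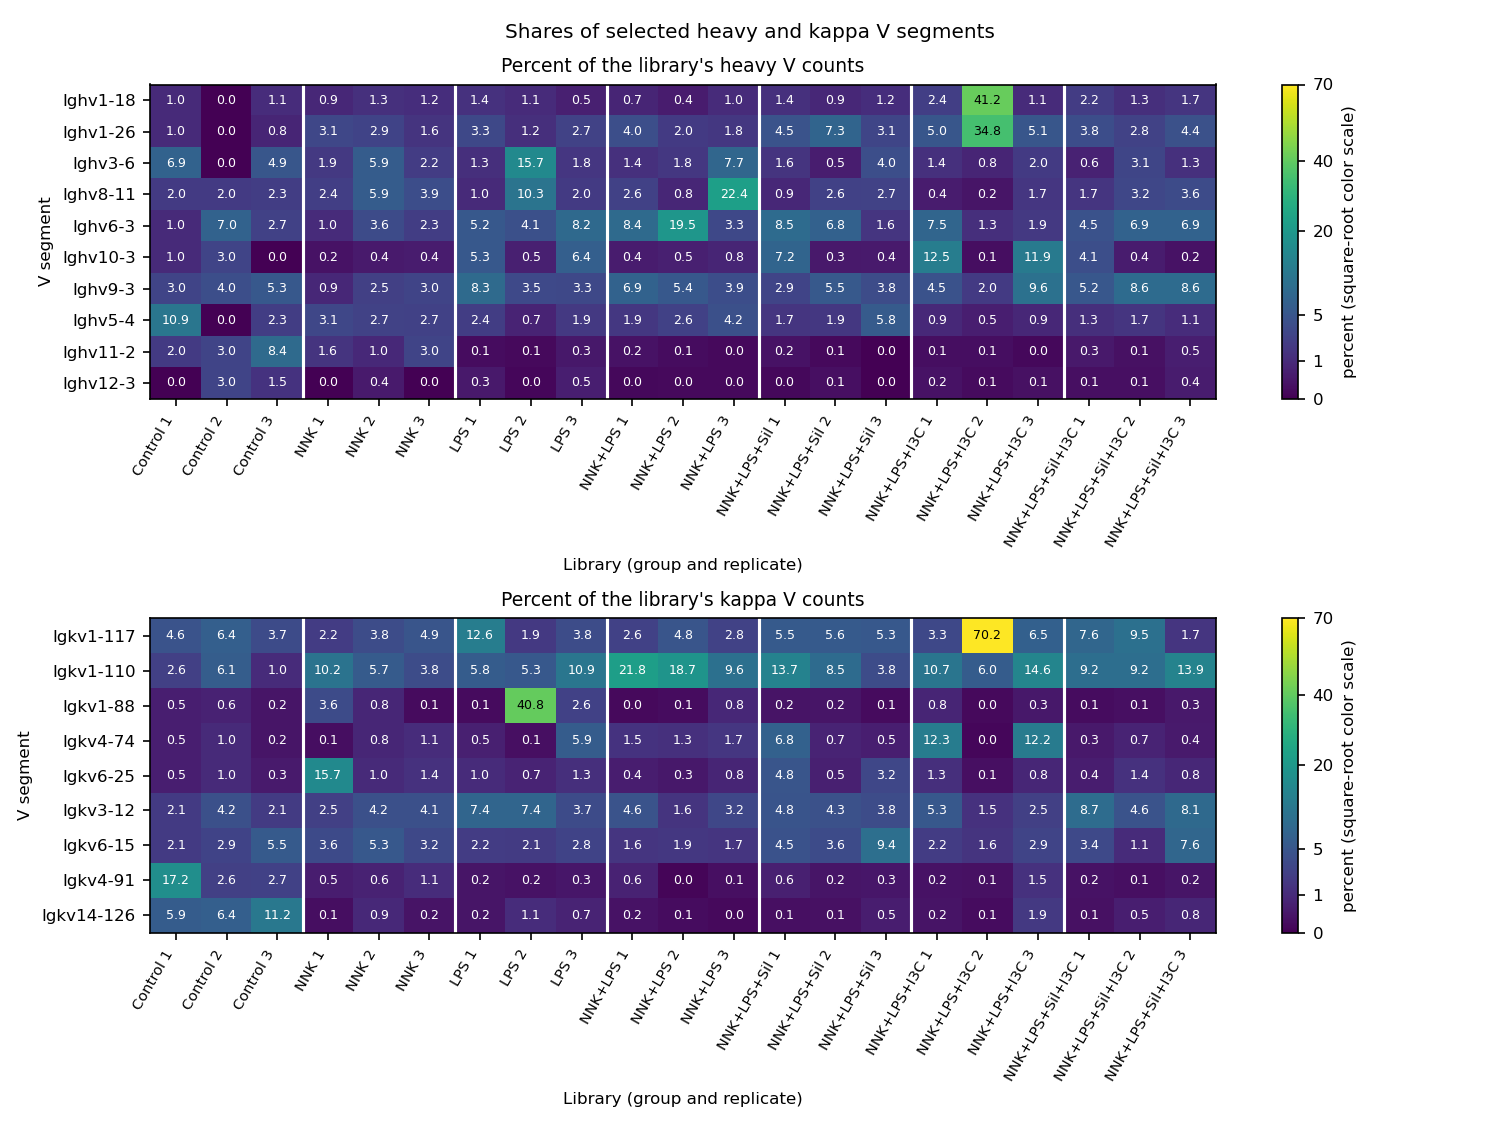
Share of each library's heavy (top) or kappa (bottom) V counts held by selected segments, with the percentage written in each cell and a square-root color scale; white lines separate the groups. NNK_LPS_I3C replicate 2 shows 41.2% Ighv1-18, 34.8% Ighv1-26 and 70.2% Igkv1-117, LPS replicate 2 shows 40.8% Igkv1-88, and Igkv14-126 is highest in the 3 Control libraries.

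Lambda segments, of which the mouse has few, made up a small share of light-chain V counts. The share was 8.88, 12.1 and 7.28% in Control, 4.27, 6.55 and 4.59% in NNK, and 3.3, 2.85 and 9.72% in LPS. In NNK_LPS it was 6.06, 2.59 and 14.2%, and in the diet libraries 1.88 to 4.89%. The Control values lay above those of NNK and of all diet groups, and the Control counts were low, with 38, 43 and 68 lambda V counts.

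Iglv1 was the leading lambda segment in 19 libraries, with a median of 77% of lambda V counts. Iglv2 led in the other 2, holding 56.2% (825 counts) in NNK_LPS replicate 1 and 79.7% (2299 counts) in NNK_LPS replicate 3. In NNK_LPS replicate 2 it held 10.2% (23 counts), so the group was not uniform. NNK_LPS replicate 3 also had 47.2% of its heavy constant region counts in Ighm, the IgM constant region, against 8.7 and 7.71% in the other libraries of the group. Iglv3 ranged from 2.33 to 35.3% of lambda V counts, the highest being 24 counts in Control replicate 3.

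**Figure D4:**
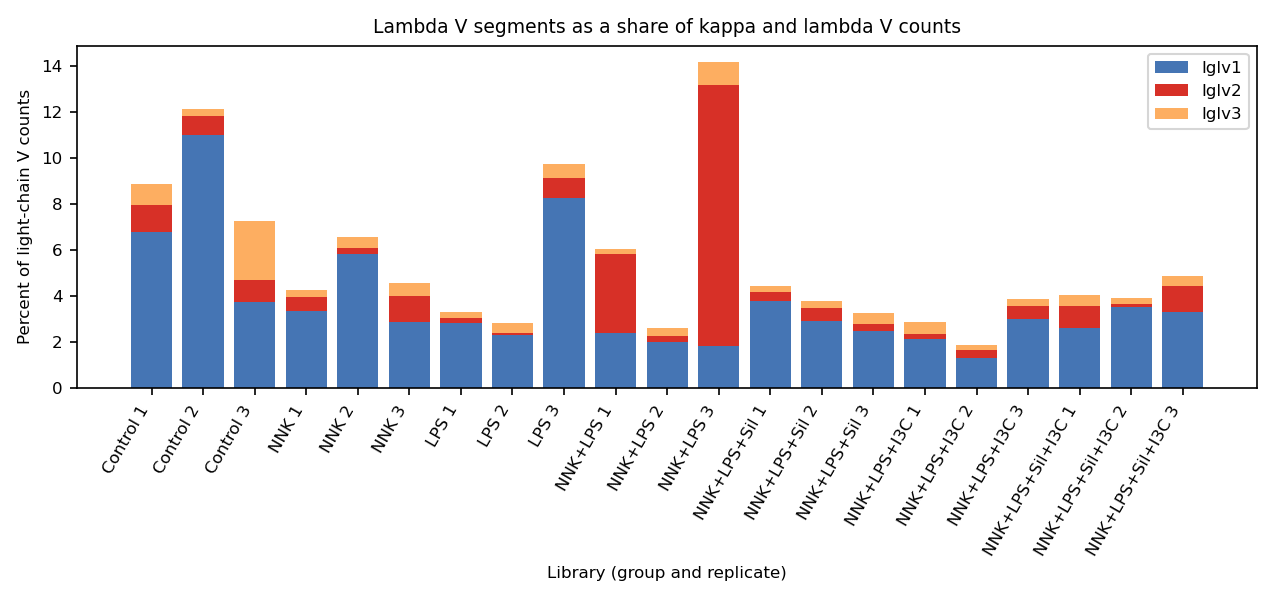
Iglv1, Iglv2 and Iglv3 counts as stacked percentages of all light-chain (kappa and lambda) V counts in each library. The highest bar, 14.2%, is NNK_LPS replicate 3, and most of it is Iglv2.

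Some segments took larger shares of the small Control repertoire than of any other. Igkv14-126 held 5.9, 6.41 and 11.2% of kappa V counts in Control (23, 20 and 97 counts) and at most 1.94% in any other library. Igkv4-91 held 17.2, 2.56 and 2.66% in Control and at most 1.45% elsewhere. Among heavy rows, Ighv11-2 held 1.98, 3.0 and 8.37% in Control (2, 3 and 22 counts), 0.958 to 2.96% in NNK and at most 0.488% in the LPS-treated groups. Ighv12-3 had 0, 3 and 4 counts in Control, or 0, 3.0 and 1.52%, and at most 0.473% elsewhere, so its Control value rests on few counts. As background, Ighv11-2 with Igkv14-126 and Ighv12-3 with Igkv4-91 are the heavy and light pairs known from B-1 cells that bind phosphatidylcholine. Ighv11-2 and Ighv12-3 were chosen after their values were seen.

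A lower share was not always a lower level. In CPM, Ighv11-2 was 0.588 in Control, 0.972 in NNK and 0.503 in LPS, and its difference between LPS and Control was -0.25 ± 0.94 on the log2 scale (edgeR, adjusted p = 0.849). Igkv14-126 was 3.09 CPM in Control, 0.495 CPM in NNK and 14.1 CPM in LPS. Its NNK libraries all lay below its Control libraries, with a difference of -2.64 ± 1.52 on the log2 scale (edgeR, adjusted p = 0.255). The constant regions also differed in share: Ighm was 42.3 to 74.1% of heavy constant region counts in Control and 7.62 to 22.3% in NNK, where Igha, the IgA constant region, held 70.4 to 82.3%.

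Position along the heavy locus differed as well. The 114 heavy rows lie on chromosome 12 between 113574245 and 116000461, and the 57 rows nearest the J segments held 75.2 ± 6.4% (SD, n = 3) of heavy V counts in Control. Their share was 64.7 ± 8.8% in NNK, 66.5 ± 2.9% in LPS and 59.3 ± 9% in NNK_LPS. It was 56.1 ± 2% in NNK_LPS_Sil and 54.2 ± 2.6% in NNK_LPS_Sil_I3C, and 13.3% in NNK_LPS_I3C replicate 2. Of the members, 54.5% belong to these rows.

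Whether libraries of 1 group were more alike than libraries of different groups varied with the group. The Morisita-Horn index, which is 1 for equal shares and 0 for no shared row, had a median of 0.667 for heavy rows within groups (21 pairs, 0.165 to 0.872) and 0.536 between groups (189 pairs, 0.0266 to 0.9). For kappa rows the medians were 0.656 and 0.551. The heavy median within the group was lower than that between groups in Control (0.467), LPS (0.38), NNK_LPS (0.471) and NNK_LPS_I3C (0.193). For kappa rows it was lower in NNK (0.508), LPS (0.253) and NNK_LPS_I3C (0.212). The 21 pairs within groups differed beyond counting noise in all cases, with a chi-square per degree of freedom of at least 2.78 for heavy and 4.19 for kappa rows.

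Segment by segment, the spread between libraries was large. Counts were compared with edgeR's quasi-likelihood test over all 15770 genes that passed its filter, which kept 160 of the 163 members (not Ighv1-83, Igkv4-54 and Igkv4-71); a call is a Benjamini-Hochberg adjusted p under 0.05. The median biological coefficient of variation was 0.838 for members and 0.123 for all genes tested. Only 40 members reached 10 counts in a Control library and 11 had no count there, so members that qualified through the LPS-treated libraries alone had to be higher there. Counts and medians over members are given as descriptions. The comparisons share control groups and are not independent.

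Between NNK and Control, most V segments had higher estimates but few were called. Of 160, 3 were higher and 0 lower, against 6.46% of all genes called higher. They were Igkv4-57-1, with 1, 0 and 9 counts in Control and 47, 39 and 49 in NNK (log2 difference 3.70 ± 1.07, adjusted p = 0.0335), Igkv8-24 (4, 7 and 6 against 9, 89 and 55; 3.14 ± 0.97, adjusted p = 0.0426) and Ighv3-8 (0, 3 and 1 against 35, 2 and 18; 3.67 ± 1.16, adjusted p = 0.0473). The median log2 difference of members was 2.21, or 2.01 with segments absent from a group set at a floor of 3 counts over the group, against -0.02 for all genes. All 3 neutrophil genes were called higher in NNK (sums of 63.2 to 452 CPM against 27.2 to 84.5 in Control) and all 3 heart muscle genes lower (92.9 to 181 against 353 to 387 CPM), and their part in the V segment values was not tested. In 69 members every NNK library lay above every Control library, which held for 17.3% of all genes. No call was left without the filter on low counts, or without Control replicate 1, Control replicate 2 or NNK replicate 3. Over all genes, these fits called 1535 of 22168, 790 of 15958, 404 of 15946 and 1064 of 15959 in either direction. Without NNK replicate 1, 1 member was left, with 492 of 15959 genes called. DESeq2 called 30 members higher, and 2648 of 15770 genes in either direction.

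Between LPS and Control, most V segments of all chains rose. Of 160, 117 were called higher and 0 lower, against 25.3% of all genes called higher: 60 of 76 heavy, 55 of 81 kappa and 2 of 3 lambda segments. Igkv6-15 had 8, 9 and 48 counts in Control and 461, 874 and 400 in LPS (log2 difference 4.77 ± 0.70, adjusted p = 4.19e-05). Igkv8-21 had 2, 5 and 10 against 570, 487 and 605 (6.62 ± 1.05, adjusted p = 8.92e-05), and Igkv1-110 had 10, 19 and 9 against 1227, 2221 and 1535 (7.05 ± 1.15, adjusted p = 0.00011). In these segments the lowest LPS library lay above the highest Control library. Of the lambda segments, Iglv1 rose by 4.83 ± 0.84 (adjusted p = 0.000208) and Iglv3 by 3.57 ± 0.90 (adjusted p = 0.00372), whereas Iglv2 had 3.74 ± 1.55 (adjusted p = 0.0547). The median was 5.01, or 4.92 with the floor, against -0.02 for all genes. Markers of other cells moved as well: the 3 neutrophil genes summed to 27.2 to 84.5 CPM in Control and 721 to 908 CPM in LPS, and the 3 heart muscle genes to 353 to 387 and 56.9 to 77.6 CPM. Their part in the V segment result was not tested.

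Few segments had lower estimates in LPS than in Control. Log2 estimates below 0 were found for 4 of 160: Ighv1-63 (-1.11, adjusted p = 0.488), Ighv11-1 (-0.41, adjusted p = 0.767), Ighv11-2 (-0.25, adjusted p = 0.849) and Igkv3-9 (-0.52, adjusted p = 0.817). Ighv11-1 and Ighv11-2 were both among them; the 4 were named after their values were seen. The largest estimate, that of Igkv1-88, rested on LPS replicate 2, which held 17028 of the 17409 counts of the group.

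NNK_LPS tumours were also far above Control. Of 160 members, 91 were called higher and 0 lower, against 12.0% of all genes called higher, with 40 heavy, 48 kappa and all 3 lambda segments among them. Igkv1-110, with 10, 19 and 9 counts in Control, had 4971, 1580 and 1679 in NNK_LPS (7.63 ± 1.16, adjusted p = 0.000483). Ighv5-4 (11, 0 and 6 against 136, 64 and 289; 4.62 ± 0.81, adjusted p = 0.00114) and Ighv5-6 (4, 2 and 7 against 126, 79 and 98; 4.37 ± 0.77, adjusted p = 0.00122) followed. The median was 4.58, or 4.51 with the floor. Control and NNK_LPS share no set of libraries, and with a term for the set 0 of 160 members passed, with an adjusted p of 0.0894 for Igkv1-110, 0.102 for Ighv5-4 and 0.133 for Ighv5-6. In that fit the median over members was 5.46, the estimate for Igkv1-110 was 7.84, and calls over all genes went from 3876 to 24. LPS was the only group with libraries in both sets. The step between these sets therefore rested on LPS replicate 3 (1265 CPM of V counts) against replicates 1 and 2 (1899 and 3421 CPM). Such a fit parts the set from the treatment only through these LPS libraries. It takes the step to be the same in lung and tumours, which was not tested. Without Control replicate 1, 2 or 3 there were 51, 48 and 59 calls, and without NNK_LPS replicate 1 there were 57. Calls over all genes in these fits, in that order, were 2524, 2289, 3410 and 2487.

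Against NNK tumours, NNK_LPS tumours had more V counts in each chain but no called segment. The median log2 difference was 2.71, against 0.01 for all genes, and in 78 of 160 members every NNK_LPS library lay above every NNK library, which held for 10.7% of all genes. With edgeR, 0 members passed, against 0.0951% of all genes called; at an unadjusted p under 0.05, 82 members did, against 16.0% of all genes. DESeq2 called 47 members higher, against 1.70% of all genes. Igkv1-110 had 203, 88 and 120 counts in NNK and 4971, 1580 and 1679 in NNK_LPS (4.22 ± 0.88, adjusted p = 0.0639 with edgeR). Ighv6-3 had 6, 19 and 23 against 615, 471 and 227 counts (4.67 ± 1.09, adjusted p = 0.0741). The groups lie in different sets of libraries, so their own libraries cannot tell set and LPS treatment apart. With a term for the set, which rests on the LPS libraries, the median over members was 3.33. In that fit 0 members and 0 of all 15770 genes were called.

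Few V segments were called between tumours and normal lung under LPS. With a median biological coefficient of variation of 0.838 for members and 0.123 for all genes, few calls do not show equal levels. Of 160 members, 1 was called higher in NNK_LPS, against 17.3% of all genes called higher, and 8 were called lower, against 20.9% of all genes. Iglv2 had 49, 40 and 139 counts in LPS and 825, 23 and 2299 in NNK_LPS (3.56 ± 1.10, adjusted p = 0.0181); without NNK_LPS replicate 3 it was 2.38 (adjusted p = 0.109). Igkv1-88 was lower by -6.93 ± 1.80 (adjusted p = 0.00638), and without LPS replicate 2 by -1.99 (adjusted p = 0.298). Igkv8-21, with 194, 73 and 111 counts against 570, 487 and 605, fell in a more uniform way (-2.30 ± 0.73, adjusted p = 0.0208). Ighv12-3 (-2.94 ± 0.96, adjusted p = 0.0225) rested on 6 counts in NNK_LPS and 43 in LPS, and its groups overlapped.

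The others called lower were Igkv14-126 (-3.76 ± 1.30), Ighv1-31 (-2.96 ± 1.05), Ighv1-84 (-2.65 ± 0.97), Igkv4-70 (-2.63 ± 0.95) and Ighv2-6 (-2.63 ± 1.00), with adjusted p between 0.0317 and 0.0478; Ighv1-31, Ighv1-84 and Igkv4-70 were named after their values were seen. The median over members was -0.40, against -0.02 for all genes. Leaving out a library changed the count to between 3 (without NNK_LPS replicate 3; 5 without NNK_LPS replicate 2) and 12 (without NNK_LPS replicate 1), and a term for the set left 3, all lower. Over all genes, 5585, 4804 and 5420 were called without NNK_LPS replicates 3, 2 and 1. The set term gave 3979, against 6024 in the main fit.

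Few V segments were called with the diets. With Sil, 0 of 160 members were called by edgeR and 0% of all genes; 12 members and 3.67% of all genes had an unadjusted p under 0.05, and DESeq2 called 0 members. The median of members was 0.19. With I3C, 2 members were called higher and 0 lower, against 1.22% of all genes called higher, and the median was 0.90. In the same comparison all 3 heart muscle genes were called higher, with sums of 267 to 364 CPM against 68.7 to 118 CPM in NNK_LPS, and 3 of 4 alveolar type 2 genes were called lower, with sums of 29411 to 31215 against 41167 to 54569 CPM. Their part in the V segment values was not tested. With Sil and I3C together, 1 member was called higher, against 0.552% of all genes, and the median was 0.54.

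The diet calls differed in how far they rested on 1 library. Ighv1-18 had 53, 10 and 71 counts in NNK_LPS and 279, 5560 and 226 in NNK_LPS_I3C (5.04 ± 1.11, adjusted p = 0.0363); without NNK_LPS_I3C replicate 2 it was 2.25 (adjusted p = 0.0969), and with the replicate number as a block 4.14 (adjusted p = 0.0646). Igkv11-125 had 0, 0 and 2 counts against 14, 50 and 43 (adjusted p = 0.0362), a ratio of pooled counts of 40.2 with a 95% exact counting interval of 10.9 to 336; every NNK_LPS_I3C library lay above every NNK_LPS library. Its log2 estimate was 4.53 or more whichever library was left out, and its adjusted p reached 0.214 without NNK_LPS replicate 2. Igkv5-45 had 4, 0 and 11 counts in NNK_LPS and 1651, 14 and 52 in NNK_LPS_Sil_I3C (6.15 ± 1.44, adjusted p = 0.0459), and without NNK_LPS_Sil_I3C replicate 1 it was 2.22 (adjusted p = 0.298). With a term for the set, the adjusted p was 0.258 for Ighv1-18, 0.194 for Igkv11-125 and 0.543 for Igkv5-45. Igkv1-117, the dominant kappa segment of NNK_LPS_I3C replicate 2, was not called (3.88 ± 1.10, adjusted p = 0.0708).

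**Figure D5:**
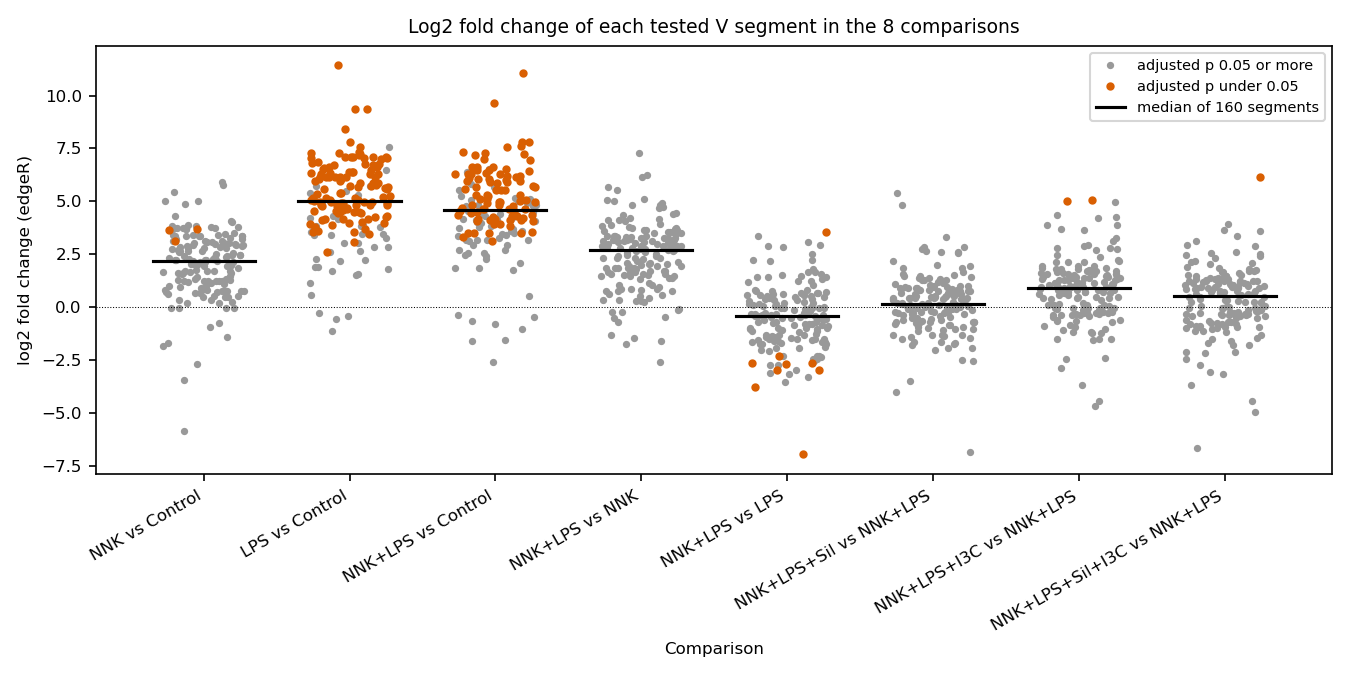
Log2 fold change (edgeR) of each of the 160 tested V segments in the 8 comparisons, with orange points for an adjusted p under 0.05 and bars at the median. Most segments were called in LPS against Control (117) and NNK_LPS against Control (91); the medians of the diet comparisons lay between 0.19 and 0.90.

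Other genes of the B lineage were read beside the segments. Of 9 constant region genes tested, Igha (log2 difference 3.46 ± 0.56, adjusted p = 0.00366) and Igkc (2.12 ± 0.64, adjusted p = 0.0414) rose in NNK, 8 rose in LPS and 9 rose in NNK_LPS against Control. In LPS, the exception was Ighm, with 1.91 ± 0.92 (adjusted p = 0.0955). Of 9 plasma cell genes tested, 1, 8 and 6 rose in the same comparisons, and their summed level was 707 to 725 CPM in Control and 1972 to 3003 CPM in LPS. Of 9 B cell genes tested, 0, 3 and 0 rose, with sums of 60.4 to 279 CPM in Control, 260 to 347 CPM in LPS and 109 to 222 CPM in NNK_LPS. The median Control sum was 87.7 CPM, so 1 library set the top of the Control range. Sdc1 and Xbp1, which epithelial cells also express, made up most plasma cell list counts in Control. Igj, the chain that joins IgA and IgM units, went from 27.1 to 55.1 CPM in Control to 1076 to 1948 CPM in LPS and made up most of the difference in the sum. None of the tested genes of these 3 lists was called lower in these comparisons, and the part of cell number in the V counts was not tested.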

How the data were processed

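RNA-seq libraries, made with the TruSeq RNA kit, version 2, per the labels' protocols, had been counted by the authors. The deposited table holds raw counts per gene symbol for 21 libraries, and mm10 is named in the submitters' processing notes. For the aligner, counter, annotation and strand setting, the sources used here give nothing.

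Members were chosen, and lists made, with earlier results of these data known. Shares, rows seen (at 1 or more counts, or expected among 455 V counts), Pielou evenness and inverse Simpson numbers were computed per library with numpy and pandas and given as mean ± SD. Counts were tested in R 4.3.3 with edgeR 4.0.16 (filterByExpr minimum 10, TMM scaling, robust quasi-likelihood fit to 7 groups, 14 residual degrees of freedom, Benjamini-Hochberg over 15770 genes). The code was checked on simulated data with a smaller spread than the V segments had, so the check does not cover them. The ± beside a log2 difference is an approximate standard error: the absolute difference divided by the square root of the test's F value. DESeq2 1.42.0 was an alternative. The difference between the effects of LPS in tumours and in lung was added after the data were seen. Intervals and floors cover counting error only.

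Segments named were the 6 heavy and 6 kappa rows of highest mean share, all lambda rows, each library's leading rows and up to 3 called members per direction and comparison; for other segments the text says that values had been seen. Deviations from the group mean were correlated between same-numbered libraries. The number used, also for the replicate block, was the replicate number within the group. In NNK and the NNK_LPS groups, the numbers that end the library titles differ from it, and pairs by those were not tested. All 3 correlations were over 0.1 only between NNK_LPS_I3C and NNK_LPS (0.158, 0.276 and 0.262). Between NNK and Control they were 0.178, 0.0332 and 0.290, and the own number was best in each. The labels do not say what the number marks.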

Additional observations from a re-analysis of the deposited data

Results flagged for a closer look

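The effect of LPS in tumours (NNK_LPS minus NNK) was set against its effect in lung (LPS minus Control) in the edgeR model. This contrast tests the difference itself. The effect was smaller in tumours for 13 of 160 V segments and larger for 0, against 14.4% of all genes called lower. At an unadjusted p under 0.05 in the edgeR test there were 25 members, all with a smaller effect in tumours. The same held for 5814 of 15770 genes, in either direction. The 13 segments and their log2 differences were Igkv4-57-1 (-5.10), Igkv6-15 (-3.21), Igkv4-70 (-5.99), Ighv3-8 (-4.66), Igkv6-25 (-7.09), Igkv8-24 (-3.74), Ighv14-2 (-6.09), Igkv8-21 (-4.54), Igkv4-68 (-5.03), Ighv1-69 (-4.64), Ighv5-9 (-3.87), Igkv3-12 (-4.38) and Ighv1-9 (-4.18), with adjusted p from 0.00765 to 0.0495.

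Igkv6-15 had 8, 9 and 48 counts in Control, 461, 874 and 400 in LPS, 71, 82 and 103 in NNK, and 375, 157 and 291 in NNK_LPS. Igkv8-21 had 2, 5 and 10 counts in Control, 570, 487 and 605 in LPS, 9, 34 and 39 in NNK, and 194, 73 and 111 in NNK_LPS. In both, the NNK libraries already lay above most or all Control libraries. Others were less uniform, and these examples were named after their values were seen. Igkv6-25 had 2, 3 and 3 counts in Control and 218, 286 and 183 in LPS. In tumours it had 312, 15 and 46 in NNK and 98, 25 and 132 in NNK_LPS. Igkv4-70 had 11, 80 and 423 counts in LPS. Ighv14-2 had 1, 1 and 1 in Control and 137, 37 and 12 in LPS. The tumour groups lie in different sets of libraries, whose part in this contrast was not tested.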

How the results depend on the processing

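Called V segments depended on the fit. Calls over all genes stand in brackets, of 15770 tested unless stated. Between NNK and Control, 0 were called with no filter on low counts (1535 of 22168), 1 with the replicate block (2311) and 1 with a term for the set of libraries (1971). DESeq2 called 30 (2648), and a fit of these groups alone 24 of 50 tested (2314 of 14932). NNK_LPS against Control gave 0 with the set term (24). NNK_LPS against NNK gave 47 with DESeq2 (492) and 2 of 108 in its own groups (19 of 14979). NNK_LPS against LPS gave 3 with the set term (3979) and 14 with DESeq2 (6187). I3C gave 1 without the filter (233 of 22168), 10 with DESeq2 (1042) and 0 in its own groups (5 of 15231). Sil with I3C gave 0 without the filter (178 of 22168), with the set term (2) and in its own groups (13 of 15299). In fits without 1 library, 15925 to 15960 genes were tested. They gave 0 to 2 calls for NNK against Control (404 to 1840). For LPS against Control there were 89 to 105 (6613 to 7269). NNK_LPS gave 48 to 80 against Control (2227 to 4359), 0 to 3 against NNK (0 to 223) and 3 to 12 against LPS (4720 to 5585). There were 0 to 7 for I3C (21 to 794), 0 for Sil (0) and 0 to 3 for Sil with I3C (30 to 816). The cause was not tested. Same-numbered replicates deviated together (all 3 correlations over 0.1) in 1 of 8 comparisons, I3C against NNK_LPS, where the block kept the count at 2 calls and ended that of Ighv1-18 (adjusted p = 0.0646). Over all comparisons, 9 of 24 correlations were over 0.1 and the own number was best in 12.

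Rows seen at 10 or more counts were 19.7 in Control, 72.7 in NNK, 135 in LPS, 121 in NNK_LPS, 129 in NNK_LPS_Sil, 142.7 in NNK_LPS_I3C and 138.7 in NNK_LPS_Sil_I3C. Rows with at least 1 count among 455 V counts were 103, 89.2, 90.4, 100.2, 82.7 and 94.7 in the 6 groups after Control. As inverse Simpson numbers, also not matched for depth, heavy evenness was 25.3 in Control, 33.6 in NNK, 31.0 in NNK_LPS_Sil and 29.6 in NNK_LPS_Sil_I3C. Kappa evenness by the same number was 25.5 in Control and 28.8 in NNK. Over members alone, Pielou evenness in NNK_LPS_Sil_I3C was 0.854 (heavy) and 0.809 (kappa). From constant regions, lambda was 15.7% of light chains in Control and 3.21% in NNK_LPS_Sil. Low V counts, 455 in the shallowest library, limit every comparison with Control.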
